A study of Mus musculus with 30 samples.

Results

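The 9 genes described here mark the endothelium, the cell layer that lines blood and lymph vessels: Pecam1, Cdh5, Esam, Kdr, Plvap, Gpihbp1, Cd93, Vwf and Lyve1. They were chosen by name as vessel markers, with earlier results of these data known, and are 9 of the 55487 genes in the table. All 9 were among the 15458 genes that passed the filter on low counts. The colons of 30 mice, 5 of each genotype, gave a library each, in which reads near the 3′ end of transcripts were counted. The genotypes were XBP1IEC-KO (here the Xbp1 knockout), Casp8IEC-KO (the Casp8 knockout), XBP1IEC-KO;Casp8IEC-KO (the double knockout), XBP1IEC-KO;Casp8IEC-KO;TNFR1IEC-KO (the TNFR1 triple knockout), XBP1IEC-KO;Casp8IEC-KO;MLKLKO (the MLKL triple knockout) and WT. IEC stands for intestinal epithelial cells, so by their names the Xbp1, Casp8 and TNFR1 deletions lie in the gut lining and not in vessels, while the MLKL deletion names no cell type. Both triple knockouts carry the deletions of the double knockout as well. The labels name no Cre driver, age or sex.

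Endothelial cells hold to each other through junction proteins such as VE-cadherin (Cdh5), PECAM1 and ESAM. In capillaries of the gut lining they are pierced by fenestrae, whose diaphragms need PLVAP, and they depend on VEGF, which signals through KDR. Lymph vessels carry LYVE1, a receptor for hyaluronan, and drain fluid, immune cells and absorbed fat from the gut wall. Inflamed vessels display adhesion molecules such as ICAM1, VCAM1 and MAdCAM-1, which capture leukocytes.

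Library totals ran from 3516792.65 to 5823059.66 reads, and 1 read was worth 0.232 CPM (counts scaled to a common library size) in the median library. The targeted genes were read first. Casp8 stood at 24.7 to 34.8 CPM in the Casp8 knockout, 22 to 46.3 CPM in the double knockout, 16.5 to 33.6 CPM with TNFR1 deleted as well and 12.2 to 29.6 CPM with MLKL deleted as well, against 51.5 to 58.7 CPM in WT. The library labelled Xbp1 knockout replicate 2 had 21.1 CPM of Casp8, below every WT library, although its label names no Casp8 deletion. The library labelled MLKL triple knockout replicate 5 had 10.7 CPM of Mlkl, above every WT library (5.72 to 9.88 CPM). Xbp1 averaged 55.5 ± 5.55 CPM in the Xbp1 knockout and 104 ± 24.8 CPM in the double knockout, against 76.7 ± 20.8 CPM in WT (SD, n = 5 each), and Tnfrsf1a averaged 60 ± 9.31 CPM in the TNFR1 triple knockout, against 70.2 ± 5.35 CPM in WT. A 3′ tag may lie outside a deleted part, and whole colon holds many undeleted cells, so these levels do not check every label. Double knockout replicate 1 stood apart from its group, with 10.3% of its reads from mitochondrial genes, against 13.3 to 22.9% in the other libraries. Called results of the 9 genes that rest on these 3 libraries are also given without 1 or all of them. Results of other genes and of lists are given with all libraries only. Xist and Y-linked genes marked as female 3 of 5 Xbp1 knockout mice, 3 of 5 Casp8 knockout mice, 1 of 5 double knockout mice, 4 of 5 TNFR1 triple knockout mice, 5 of 5 MLKL triple knockout mice and 1 of 5 WT mice.

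Pecam1, Cdh5, Kdr and Plvap passed the test in none of the 11 comparisons, whereas Lyve1, Gpihbp1, Cd93, Vwf and Esam each passed in at least 1. A gene was called at an adjusted p under 0.05 by edgeR's quasi-likelihood test, with Benjamini-Hochberg adjustment over all genes. In the double knockout against WT 1 of the 9 genes was called, and it was lower, where 10.2% of all genes were lower and 21.3% were called in either direction, so the count by itself is close to the background. The median log2 fold change of the 9 genes was 0.03 there, and that of all genes was 0.01. In the TNFR1 triple knockout against WT 2 of the 9 were lower, where 0.957% of all genes were, and the members' median was -0.13. For the MLKL triple knockout against WT edgeR called 0 of 9, with 0.854% of all genes called. At an unadjusted p under 0.05 it was 5 of 9, where 15.4% of all genes were, and voom and DESeq2 called 1 each. The single knockouts gave 0 of 9 against WT by edgeR. In the Xbp1 knockout 0.0841% of all genes were called, 4 of the 9 had an unadjusted p under 0.05 (13% of all genes), and voom and DESeq2 called 0. In the Casp8 knockout 1.17% of all genes were called, 5 of the 9 had an unadjusted p under 0.05 (15.6% of all genes), voom called 4 and DESeq2 called 2. All these percentages are from edgeR. The shares of all genes called by voom and DESeq2 are not given here, so their counts have no background beside them. Against WT the median log2 fold change of the 9 genes was -0.30 in the Xbp1 knockout (1 of 9 above 0), -0.37 in the Casp8 knockout (2 of 9 above 0) and -0.31 in the MLKL triple knockout (2 of 9 above 0), while that of all genes lay within 0.01 of 0. The summed level of the 9 genes, Lyve1 included, was 215 to 264 CPM in the Casp8 knockout, 199 to 246 CPM in the TNFR1 triple knockout and 192 to 285 CPM in the MLKL triple knockout, against 297 to 326 CPM in WT, and none of these 3 groups overlapped WT. It was 222 to 305 CPM in the Xbp1 knockout and 215 to 352 CPM in the double knockout, and both overlapped WT. Lyve1 alone made up 91.1 to 123 CPM of the WT sum and was lower in every knockout library. The separations from WT therefore rest in part on Lyve1. With Lyve1 left out of each library's sum, both triple knockouts overlapped WT, and the Casp8 knockout still lay below it. For example, WT replicate 4 had a sum of 316.6 CPM with 123 CPM of Lyve1. MLKL triple knockout replicate 5 had 284.9 CPM with 87.4 CPM of Lyve1, so more was left without Lyve1 than in that WT library. Whole tissue RNA was read, so fewer cells of a type and less RNA per cell cannot be told apart.

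**Figure D1:**
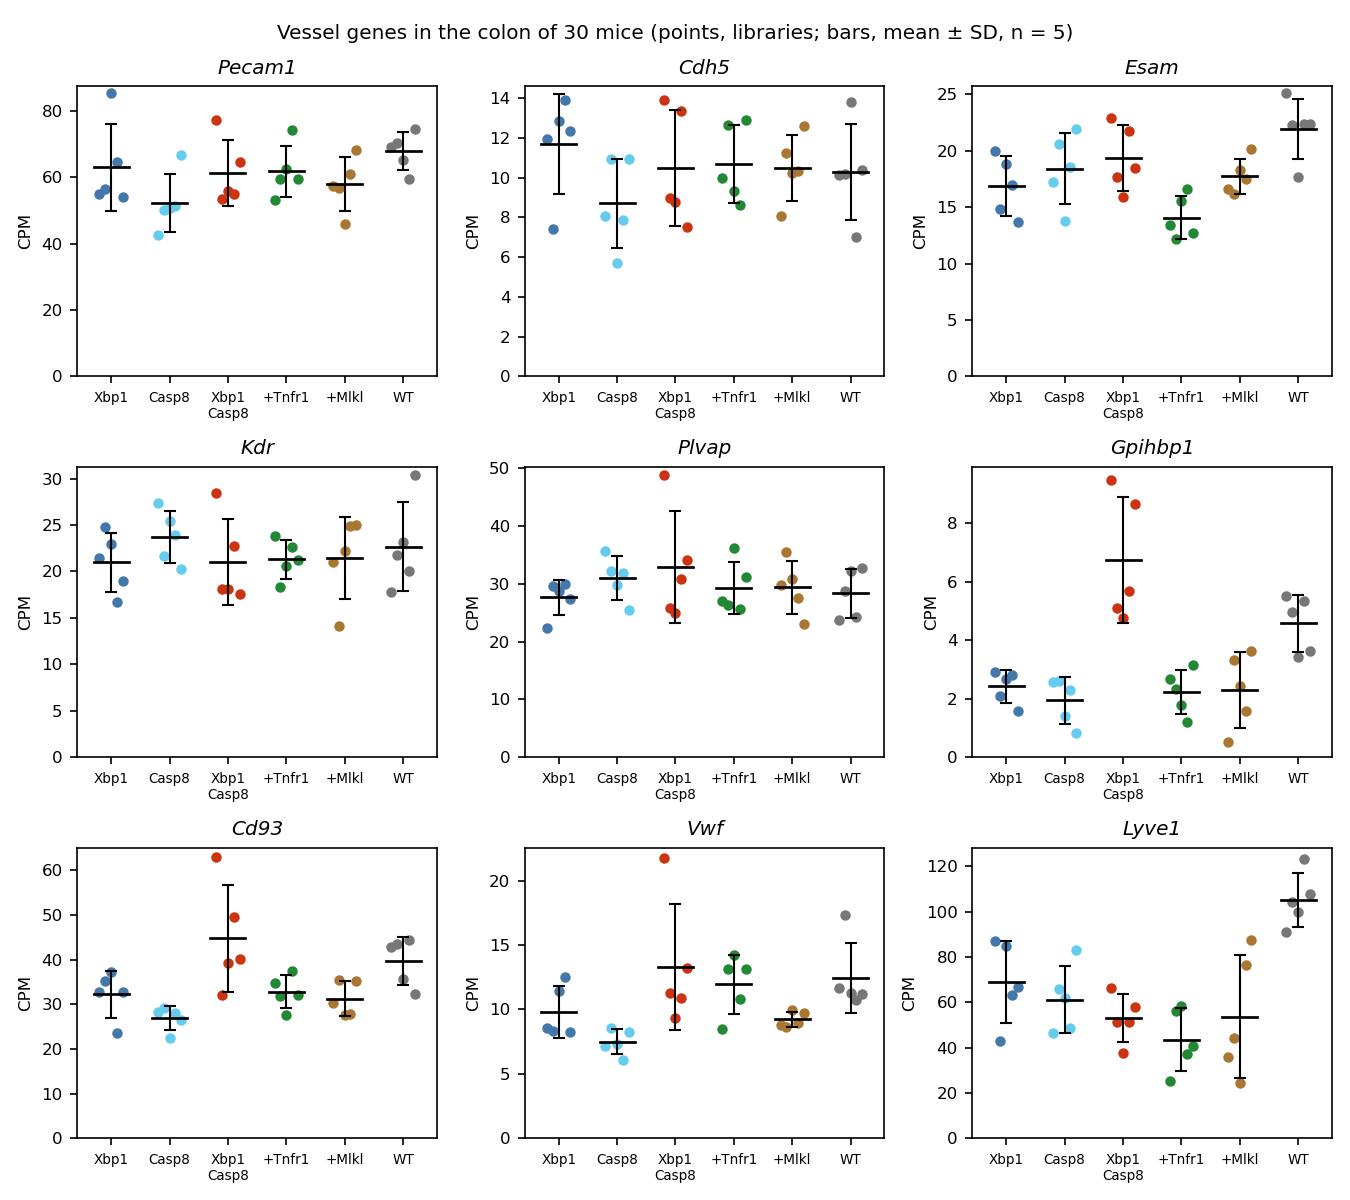
Level of each vessel gene (CPM, linear axis from 0) in every library, by genotype; +Tnfr1 and +Mlkl are the triple knockouts, which also lack Xbp1 and Casp8. Points are libraries, and bars are the mean ± SD of 5 mice. Gpihbp1 lies between 4.78 and 9.48 CPM in the double knockout and at 3.64 CPM or below in both triple knockouts, and every WT library of Lyve1 lies above every knockout library.

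Of the 3 junction genes Esam was called in 1 comparison, and Pecam1 and Cdh5 were called in none. Pecam1 (chr11:106654217-106750628 on the minus strand, GRCm38, as are all positions here) codes for an adhesion molecule of endothelial junctions that platelets and leukocytes also carry. Its levels were 77.3, 53.5, 55.8, 54.9 and 64.7 CPM in the double knockout, against 69.1, 70.4, 65.3, 59.4 and 74.7 CPM in WT. The groups overlapped, and the log2 fold change was -0.14 (95% interval -0.41 to 0.13, adjusted p = 0.475). Over the 30 libraries Pecam1 ran from 42.6 to 85.3 CPM. Its lowest group mean was 52.3 ± 8.74 CPM in the Casp8 knockout, against 67.8 ± 5.75 CPM in WT (SD, n = 5 each), a log2 fold change of -0.37 that was not called (adjusted p = 0.162).

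Cdh5 (chr8:104101625-104144511, plus strand), the gene of VE-cadherin, had 13.9, 8.95, 8.77, 13.4 and 7.52 CPM in the double knockout, against 10.1, 10.2, 13.8, 6.99 and 10.4 CPM in WT. The groups overlapped over nearly their whole ranges. Its log2 fold change was 0.03 (95% interval -0.39 to 0.46, adjusted p = 0.931), and group means lay between 8.71 CPM in the Casp8 knockout and 11.7 CPM in the Xbp1 knockout. Cdh5 rested on 24 to 85 reads per library.

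Esam (chr9:37528078-37538319, plus strand) codes for an adhesion molecule of endothelial tight junctions and platelets. It was lower in the TNFR1 triple knockout, with 13.4, 12.2, 15.5, 16.6 and 12.7 CPM, against 25.1, 22.3, 17.7, 22.4 and 22.4 CPM in WT. Every TNFR1 triple knockout library was below every WT library. The log2 fold change was -0.64 (SE 0.138, adjusted p = 0.0125), and 2.43% of all genes were lower without overlap in that comparison. With the sex of the mouse as a term it was -0.46 and no longer called (adjusted p = 0.12), and 4 of the 5 TNFR1 triple knockout mice but 1 of the 5 WT mice were female. The part of sex in this difference was not tested further. Esam averaged 17.7 ± 1.58 CPM in the MLKL triple knockout, 19.3 ± 2.9 CPM in the double knockout and 22 ± 2.66 CPM in WT (SD, n = 5 each), and neither knockout group passed the test against WT (adjusted p = 0.267 and 0.358).

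Kdr and Plvap were not called in any of the 11 comparisons. Kdr (chr5:75932827-75978458, minus strand), the gene of the main VEGF receptor of blood vessels, had 28.4, 18.2, 18.1, 22.8 and 17.5 CPM in the double knockout, against 17.8, 21.8, 23.2, 20 and 30.4 CPM in WT. The groups overlapped almost fully, with a log2 fold change of -0.10 (95% interval -0.42 to 0.22, adjusted p = 0.7). Its 6 group means lay between 21 and 23.7 CPM. Plvap (chr8:71497765-71511752, minus strand) codes for the protein that forms fenestral diaphragms. It had 48.9, 25.8, 24.9, 30.9 and 34.2 CPM in the double knockout, against 23.8, 28.7, 32.2, 24.2 and 32.8 CPM in WT. The library labelled double knockout replicate 1 was the highest of all 30, 3 of the others lay among the WT libraries and 1 just above them. The log2 fold change of Plvap was 0.23 (95% interval -0.08 to 0.54, adjusted p = 0.304). Plvap overlaps Gtpbp3 on the opposite strand, whose 1178 reads over all libraries could hold some of its own, since the strand setting of the counting is not given in the sources used here.

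Of the 9 genes Kdr has an entry in the RefSeq promoter table of build GRCm38.p6. The 250 bases before its start, at chr5:75978456-75978705 on the minus strand, are shown because Kdr is the receptor through which VEGF acts on these vessels and a gene whose level passed the test in no comparison. Capitals mark GGAA on either strand, the core that ETS factors, a family that includes endothelial regulators, bind.

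Kdr: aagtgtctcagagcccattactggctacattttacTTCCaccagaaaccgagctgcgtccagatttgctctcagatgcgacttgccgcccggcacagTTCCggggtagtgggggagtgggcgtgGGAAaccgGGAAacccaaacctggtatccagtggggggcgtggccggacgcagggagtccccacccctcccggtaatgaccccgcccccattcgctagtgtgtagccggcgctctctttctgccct

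The window held 4 matches to GGAA, and 93.4% of the 32851 promoters of the same length in the table held at least 1, with a median of 3. One of the 4 lies within the longer form CCGGAA, here on the opposite strand, which 12% of the promoters held. It also held 2 matches to GGGCGG, found in 32.7% of promoters, and no match on either strand to the GATA site GATAAG, the forkhead site TAAACA, the AP-1 site TGANTCA or the TATA box TATAAA. Its GC content was 61.6%, against a median of 52.4% over all promoters.

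Gpihbp1, Cd93 and Vwf were higher in the double knockout than in the Casp8 knockout. Gpihbp1 and Cd93 were also higher than in the Xbp1 knockout and lower again in the MLKL triple knockout, and Gpihbp1 was lower in the TNFR1 triple knockout as well. None of the 3 was called against WT in the double knockout. Of the 9 members 2 were higher in the double knockout than in the Xbp1 knockout, where 4.77% of all genes were, and 3 were higher than in the Casp8 knockout, where 9.68% were. The groups did not overlap for 1 member above the Xbp1 knockout, where 3.22% of all genes did not, and for 3 above the Casp8 knockout, where 4.35% did not. Against the double knockout 1 member was lower in the TNFR1 triple knockout, where 1.33% of all genes were, and 2 were lower in the MLKL triple knockout, where 4.21% were. In each of these 1 member, Gpihbp1, was lower without overlap, where 1.22% and 2.37% of all genes were.

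Gpihbp1 (chr15:75596628-75599481, plus strand) anchors lipoprotein lipase to capillary walls, where that enzyme frees fatty acids from circulating fat. It had 9.48, 5.11, 4.78, 5.69 and 8.65 CPM in the double knockout, against 2.59, 2.6, 1.42, 2.29 and 0.822 CPM in the Casp8 knockout. All double knockout libraries were above all Casp8 knockout libraries, and the log2 fold change was 1.79 (SE 0.336, adjusted p = 0.000547). The Xbp1 knockout had 2.92, 2.09, 2.69, 2.83 and 1.6 CPM, likewise below every double knockout library, and the double knockout was higher by 1.48 on the log2 scale (SE 0.319, adjusted p = 0.00428). In WT the values were 5.5, 4.98, 3.45, 5.36 and 3.64 CPM. They overlapped the lower double knockout libraries, and the double knockout against WT gave 0.56 (95% interval -0.05 to 1.17, adjusted p = 0.181).

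Both triple knockouts had less Gpihbp1 than the double knockout. The TNFR1 triple knockout had 2.67, 2.35, 1.77, 1.2 and 3.17 CPM, and the MLKL triple knockout 0.519, 3.35, 2.44, 1.57 and 3.64 CPM. None of these 10 libraries reached the lowest double knockout library. The log2 fold change against the double knockout was -1.61 with TNFR1 deleted as well (SE 0.322, adjusted p = 0.00859) and -1.53 with MLKL deleted as well (SE 0.321, adjusted p = 0.00324). In a fit of those groups alone the first of these was -1.60 and not called (adjusted p = 0.0623). Between the triple knockouts 0 of 9 members were called by edgeR, voom or DESeq2, where 0.259% of all genes were by edgeR, and 1 (Esam, -0.33) had an unadjusted p under 0.05, as did 8.55% of all genes. Gpihbp1 differed there by -0.07 (95% interval -0.81 to 0.66).

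By mean level Gpihbp1 stood at 6.74 ± 2.17 CPM in the double knockout, 2.43 ± 0.565 CPM in the Xbp1 knockout, 2.3 ± 1.29 CPM and 2.23 ± 0.768 CPM in the MLKL and TNFR1 triple knockouts and 1.95 ± 0.791 CPM in the Casp8 knockout, against 4.59 ± 0.972 CPM in WT (SD, n = 5 each), so WT ranked between the double knockout and the rest. The Xbp1, the Casp8 and the TNFR1 triple knockout lay below WT without overlap, and the MLKL triple knockout overlapped WT. Against WT edgeR called none of these 4 groups. The Xbp1 knockout was at -0.91 (adjusted p = 0.218) and the Casp8 knockout at -1.23 (adjusted p = 0.0685). The TNFR1 triple knockout was at -1.04 (adjusted p = 0.0886) and the MLKL triple knockout at -0.97 (adjusted p = 0.145). The 4 lowest groups overlapped each other. The gene rested on 2 to 58 reads per library, with a median of 12, so single values carry a large counting error. The groups with high Gpihbp1 were also those with mostly male mice. With sex as a term the double knockout remained called against the Casp8 knockout (1.69, adjusted p = 0.00167) and the Xbp1 knockout (1.38, adjusted p = 0.00936). So did the TNFR1 triple knockout (-1.45, adjusted p = 0.0334) and the MLKL triple knockout (-1.34, adjusted p = 0.0343) against the double knockout, though no MLKL triple knockout mouse was male. Among males alone the double knockout was higher than the Casp8 knockout by 2.05 (adjusted p = 0.0125) and than the Xbp1 knockout by 1.33, which was not called (adjusted p = 0.072). Without the 3 libraries named above Gpihbp1 differed by 1.63 (adjusted p = 0.00291) and 1.26 (adjusted p = 0.0305) in the double knockout against the Casp8 and the Xbp1 knockout. It then differed by -1.44 (adjusted p = 0.0477) and -1.57 (adjusted p = 0.00865) in the TNFR1 and the MLKL triple knockout against the double knockout.

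**Figure D2:**
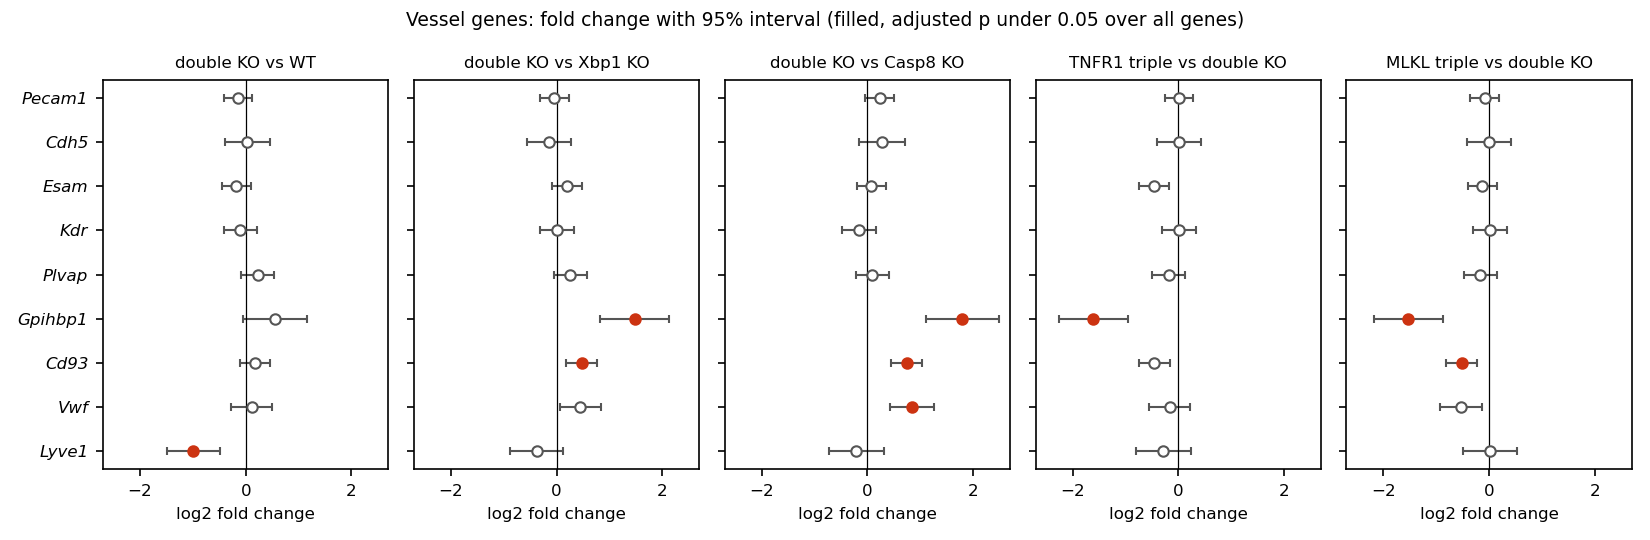
Log2 fold change (horizontal axis) with its 95% interval for each vessel gene in 5 comparisons; double KO is the double knockout, and filled points have an adjusted p under 0.05 over all genes. Gpihbp1 is filled in 4 panels, at 1.48 and 1.79 for the double knockout against the single knockouts and at -1.61 and -1.53 for the triple knockouts against the double knockout, and Lyve1 is filled only against WT, at -0.99.

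Cd93 (chr2:148436640-148443563, minus strand) codes for a lectin-like receptor of endothelial cells that takes part in vessel growth and is also found on myeloid cells. It had 62.9, 32, 39.2, 49.5 and 40.1 CPM in the double knockout, against 28.2, 29.2, 22.5, 28 and 26.6 CPM in the Casp8 knockout. The groups did not overlap, and the log2 fold change was 0.74 (SE 0.146, adjusted p = 0.000852). Without double knockout replicate 1 it was 0.58 (adjusted p = 0.00545), and among males alone 0.72 and not called (adjusted p = 0.0707). Against the Xbp1 knockout, with 32.6, 35.2, 37.3, 23.6 and 32.7 CPM, the double knockout was higher by 0.47 (SE 0.143, adjusted p = 0.0344). These groups overlapped, and without double knockout replicate 1 the value was 0.31 and not called (adjusted p = 0.177). The call was also lost without Xbp1 knockout replicate 1, 4 or 5 or without double knockout replicate 4.

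In the MLKL triple knockout Cd93 had 30.4, 35.4, 27.5, 27.9 and 35.2 CPM and was lower than in the double knockout (-0.52, SE 0.144, adjusted p = 0.023). That difference was -0.36 without double knockout replicate 1 (adjusted p = 0.107) and -0.55 with sex as a term (adjusted p = 0.0517), neither of them called. The call was also lost without double knockout replicate 4 or without MLKL triple knockout replicate 1, 3 or 4. The TNFR1 triple knockout had 34.8, 31.9, 27.5, 37.4 and 32.1 CPM of Cd93, and its difference from the double knockout was not called (-0.45, adjusted p = 0.0815). WT had 42.7, 43.4, 35.6, 44.3 and 32.2 CPM, within the double knockout range, and the double knockout against WT gave 0.18 (95% interval -0.11 to 0.47).

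Vwf (chr6:125546774-125686679, plus strand, 0.261 Mb from Tnfrsf1a) codes for von Willebrand factor, the clotting protein that endothelial cells store and release and that platelets carry. It had 21.7, 11.2, 9.36, 10.9 and 13.2 CPM in the double knockout, against 7.2, 8.6, 7.35, 6.11 and 8.22 CPM in the Casp8 knockout. The groups did not overlap, and the log2 fold change was 0.84 (SE 0.201, adjusted p = 0.00427). Without double knockout replicate 1 Vwf was still called, at 0.57 (adjusted p = 0.0349). Among males alone it was 0.77 and not called (adjusted p = 0.15). Vwf averaged 9.8 ± 2 CPM in the Xbp1 knockout, 12 ± 2.29 CPM in the TNFR1 triple knockout, 9.23 ± 0.579 CPM in the MLKL triple knockout and 12.4 ± 2.75 CPM in WT (SD, n = 5 each), and the double knockout was not called against any of these 4 groups.

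Since the design deletes Xbp1 and Casp8 singly and together, the change with Casp8 deletion can be compared between mice with and without Xbp1. This interaction was positive for Gpihbp1 (2.71, SE 0.472, adjusted p = 0.00647), Cd93 (1.04, SE 0.205, adjusted p = 0.0163) and Vwf (1.18, SE 0.281, adjusted p = 0.0385). That is 3 of 9 members, where 0.712% of all genes had a positive interaction that was called. With Xbp1 deleted, Gpihbp1 was higher with Casp8 deletion, by the 1.48 given above, and with Xbp1 intact the Casp8 knockout stood at -1.23 against WT (adjusted p = 0.0685). For Cd93 the value with Xbp1 intact was -0.56 (adjusted p = 0.0502), and for Vwf it was -0.73 (adjusted p = 0.0648). Without the 3 libraries named above the interaction was 2.50 for Gpihbp1 (adjusted p = 0.0319), 0.91 for Cd93 (adjusted p = 0.0395) and 0.86 for Vwf, which was then not called (adjusted p = 0.123). With sex as a term it was 2.51 for Gpihbp1 (adjusted p = 0.0335), 1.07 for Cd93 (adjusted p = 0.0373) and 0.93 for Vwf (adjusted p = 0.111). None of the 3 was called among males alone, with 2.81 for Gpihbp1, 1.26 for Cd93 and 1.04 for Vwf. The other 6 members were not called, and the interaction of Kdr was -0.06 (95% interval -0.52 to 0.40).

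**Figure D3:**
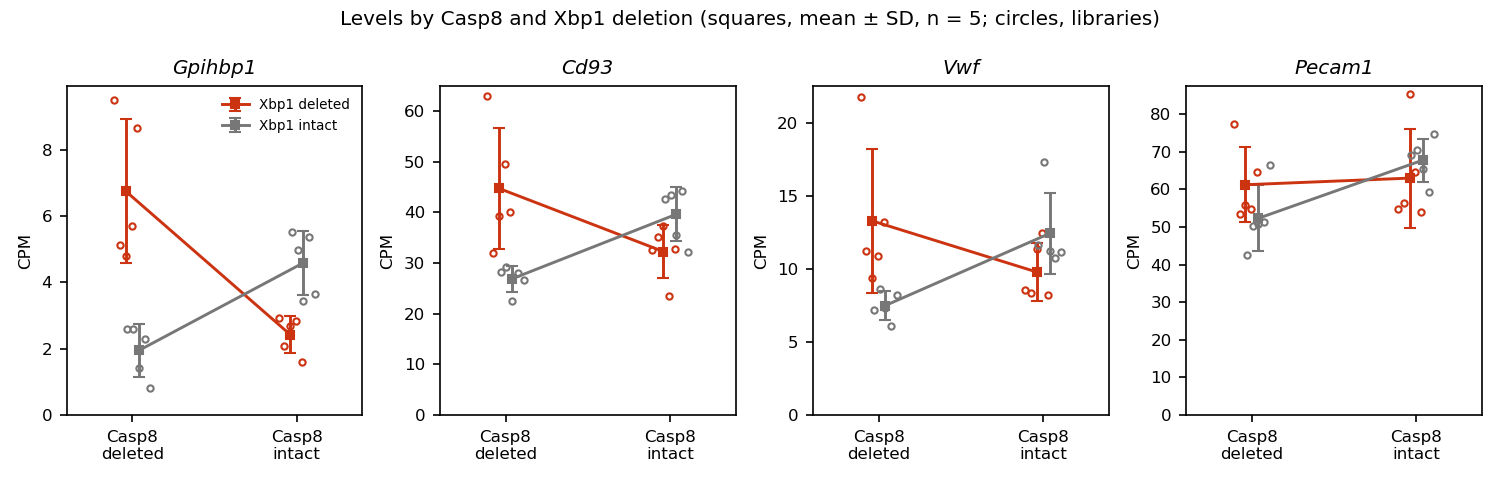
Levels (CPM, linear axis from 0) of 4 vessel genes with Casp8 deleted (left) and intact (right); red, Xbp1 deleted; grey, Xbp1 intact; squares are means ± SD of 5 mice and circles are libraries. The lines of all 4 genes cross. The interactions of Gpihbp1, Cd93 and Vwf were 2.71, 1.04 and 1.18 on the log2 scale, and that of Pecam1 (0.33) was not called.

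Other cell types moved in the same libraries. The monocyte and neutrophil markers summed to 61.6 to 375 CPM in the double knockout, against 15.9 to 100 CPM in the Casp8 knockout, 27.3 to 66 CPM in the MLKL triple knockout and 16.4 to 24 CPM in WT. Of the 6 markers 5 passed the count filter, and these 5 were higher in the double knockout than in WT, and S100a8 was listed at 0 in some WT libraries. Smooth muscle markers fell in 10 of 10 (median -1.04), summing to 3670 to 5850 CPM in the double knockout, against 8250 to 11200 CPM in WT. Epithelial markers were higher in 7 of 10 and leukocyte markers in 5 of 5. Fibroblast markers were lower in 7 of 9, markers of enteric neurons and glia in 3 of 7 and adipocyte markers in 1 of 6. Of all genes 11.1% were higher and 10.2% lower in the double knockout than in WT, so the adipocyte count is near the share. Neither erythroid marker that passed the filter was called, and no mesothelial marker passed it. The part of these shifts in the Cd93, Gpihbp1 and Vwf results was not tested. When libraries were scaled to the summed reads of 25 other endothelial genes, the double knockout against the Casp8 knockout stayed called for Gpihbp1 (1.74, adjusted p = 0.00129), Cd93 (0.69, adjusted p = 0.00263) and Vwf (0.77, adjusted p = 0.00477). On that scale Cd93 was not called in the double against the Xbp1 knockout (0.39, adjusted p = 0.108) or in the MLKL triple against the double knockout (-0.40, adjusted p = 0.0878). The interaction was then called for Gpihbp1 (2.54, adjusted p = 0.0111), but not for Cd93 (0.87, adjusted p = 0.066) or Vwf (0.99, adjusted p = 0.0734). Of 9 platelet markers listed 2 passed the filter, Gp1bb and Pf4, and both had higher means in the double knockout than in the Casp8 knockout, as Vwf had. Gp9 had at most 0.398 CPM in the double knockout and 0 in the Casp8 knockout, and Pf4 averaged 32.1 ± 9.17 CPM in the double knockout, against 23.5 ± 7.97 CPM in the Casp8 knockout and 42.4 ± 7.19 CPM in WT (SD, n = 5 each). Its difference from the Casp8 knockout was 0.46 and not called (adjusted p = 0.109). Platelet markers summed to 101 to 202 CPM in the double knockout and 79.2 to 101 CPM in the Casp8 knockout, mostly from Gp1bb, which was higher in the double knockout (0.70, adjusted p = 0.00687). Their part in the Vwf difference was not tested.

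Lyve1 was lower in the double knockout and in the TNFR1 triple knockout than in WT, and its levels were lower in every knockout library than in any WT library. Lyve1 (chr7:110850607-110863239, minus strand) codes for the hyaluronan receptor of lymphatic endothelium, which some resident macrophages also carry. It had 66.5, 51.4, 37.6, 51.2 and 58.1 CPM in the double knockout and 25.3, 56.3, 58.6, 37 and 40.7 CPM in the TNFR1 triple knockout, against 91.1, 104, 100, 123 and 108 CPM in WT. The log2 fold change was -0.99 in the double knockout (SE 0.248, adjusted p = 0.00464) and -1.27 in the TNFR1 triple knockout (SE 0.251, adjusted p = 0.00717). Below WT without overlap lay 1 of the 9 genes in the double knockout (6.66% of all genes) and 3 in the TNFR1 triple knockout (2.43%).

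The other knockouts lay lower too, without a call. The MLKL triple knockout had 35.8, 44.3, 24.6, 76.6 and 87.4 CPM of Lyve1 (-0.97, SE 0.248, adjusted p = 0.0523), with its libraries wide apart. Without the 3 libraries named above it was -1.21 and called (adjusted p = 0.0109), as it was without MLKL triple knockout replicate 4 (-1.13, adjusted p = 0.0473) or 5 (-1.21, adjusted p = 0.0175) alone, and with sex as a term it was -0.67 and not called (adjusted p = 0.42). The Casp8 knockout had 46.4, 65.9, 62.1, 48.9 and 83 CPM (-0.78, adjusted p = 0.108) and the Xbp1 knockout 87.2, 43.1, 84.7, 63.1 and 66.8 CPM (-0.61, adjusted p = 0.267). Counting Lyve1, 2 of the 9 genes lay below WT without overlap in the Xbp1 knockout (2.39% of all genes), 4 in the Casp8 knockout (2.53%) and 2 in the MLKL triple knockout (2.5%).

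With sex as a term Lyve1 was -1.01 in the double knockout (adjusted p = 0.00235) and -1.06 in the TNFR1 triple knockout (adjusted p = 0.0453). Among males alone the double knockout was at -0.91 (adjusted p = 0.000543), and without double knockout replicate 1 at -1.09 (adjusted p = 0.00476). Between knockouts no difference of Lyve1 was called. The double knockout against the Casp8 knockout gave -0.21 (95% interval -0.72 to 0.30) and against the Xbp1 knockout -0.38 (95% interval -0.89 to 0.13). The interaction of Lyve1 was 0.40 (95% interval -0.31 to 1.12). From low to high the means were 43.6 ± 13.9 CPM (TNFR1 triple knockout), 53 ± 10.6 CPM (double knockout), 53.7 ± 27 CPM (MLKL triple knockout), 61.3 ± 14.8 CPM (Casp8 knockout), 69 ± 18 CPM (Xbp1 knockout) and 105 ± 11.8 CPM (WT; SD, n = 5 each), and each neighbouring pair below WT overlapped.

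Of the 10 other lymphatic genes listed 8 passed the filter, and 2 were lower in the double knockout than in WT, where 10.2% of all genes were. These were Nrp2, a co-receptor for VEGF-C and semaphorins that nerve and smooth muscle also use, and Flt4, the VEGF-C receptor. Nrp2 had 58.2, 67, 66.7, 61.1 and 70.2 CPM in the double knockout, against 159, 129, 125, 132 and 138 CPM in WT, with no overlap (-1.08, SE 0.115, adjusted p = 3.76e-07). Nrp2 was also lower than WT in the TNFR1 triple knockout (-0.46, adjusted p = 0.0287) and the MLKL triple knockout (-0.46, adjusted p = 0.0418), and in both it was higher than in the double knockout (0.62, adjusted p = 0.00463 and 0.00112). Flt4 averaged 5.31 ± 1.78 CPM in the double knockout and 9.4 ± 3.47 CPM in WT (SD, n = 5 each), with overlap (-0.80, adjusted p = 0.0467). Prox1, the transcription factor that sets lymphatic identity, averaged 8.24 ± 1.91 CPM in the double knockout and 9.64 ± 3.37 CPM in WT (SD, n = 5 each) and was not called. The median of the 8 genes was -0.27. Pdpn and Reln were higher in the double knockout than in the Casp8 knockout (0.76, adjusted p = 0.00177 and 1.02, adjusted p = 0.011).

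**Figure D4:**
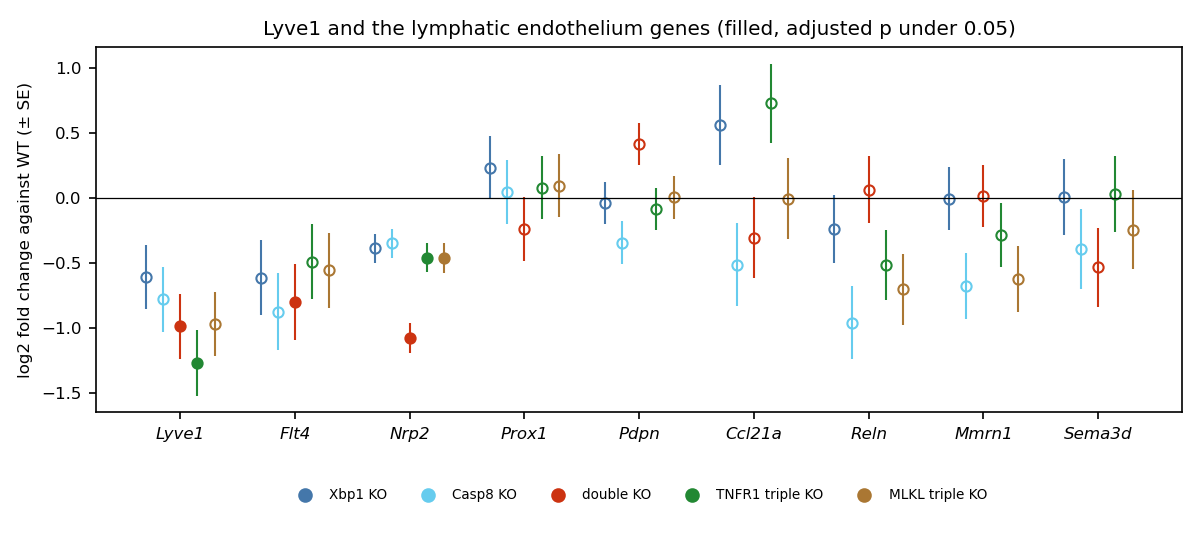
Log2 fold change against WT (± SE) of Lyve1 and the 8 other lymphatic genes that passed the count filter, for each knockout genotype; filled points have an adjusted p under 0.05. Lyve1 lies below 0 in all 5 genotypes, between -1.27 and -0.61, and Nrp2 reaches -1.08 in the double knockout.

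Resident macrophage markers were read beside Lyve1. Of 10 listed 9 passed the filter, and in the double knockout against WT 3 were higher and 1 was lower. Of all genes 11.1% were higher and 10.2% lower there, so the count of 1 lower is near the share. The lower one was Cd163, a scavenger receptor of resident macrophages, at 10.1 ± 2.78 CPM in the double knockout (-1.06, adjusted p = 0.0108) and 8.16 ± 3.33 CPM in the TNFR1 triple knockout (-1.35, adjusted p = 0.0161), against 21 ± 4.46 CPM in WT (SD, n = 5 each). The complement genes C1qa, C1qb and C1qc were higher in the double knockout (1.10, 0.98 and 0.79). The list summed to 258 to 551 CPM in the double knockout and 286 to 350 CPM in the TNFR1 triple knockout, against 236 to 335 CPM in WT, and Timd4 averaged 0.664 CPM in the double knockout and 1.02 CPM in WT. The part of macrophages in the Lyve1 difference was not tested.

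Other vessel genes were read in lists of textbook genes, and the lists were not tested against each other. Set beside them, 11.1% of all genes were higher and 10.2% lower in the double knockout than in WT. Of 25 other endothelial genes that passed the filter, of 26 listed, 1 was higher and 1 lower in the double knockout than in WT, with a median of -0.07. Their summed level was 290 ± 45.1 CPM in the double knockout and 299 ± 17 CPM in WT (SD, n = 5 each). Egfl7, a protein that endothelial cells secrete into the vessel matrix, was the higher one, with 63.1, 48.1, 43.8, 46.8 and 40.8 CPM in the double knockout, against 28.4, 28.4, 32.9, 29.8 and 35.4 CPM in WT. The groups did not overlap (0.65, SE 0.127, adjusted p = 0.000488). Egfl7 was also higher in the double knockout than in the Casp8 knockout (0.62, adjusted p = 0.00121) and the Xbp1 knockout (0.53, adjusted p = 0.00796), and against the double knockout it was lower with TNFR1 deleted as well (-0.50, adjusted p = 0.0304) and with MLKL deleted as well (-0.60, adjusted p = 0.0034). Cd34, a surface protein of endothelium that fibroblasts also carry, was the lower one (-0.77, adjusted p = 0.01).

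Of 10 genes for adhesion and activation that passed the filter, of 11 listed, 4 were higher and 1 was lower in the double knockout than in WT, where 11.1% and 10.2% of all genes were, with a median of 0.79. Madcam1, the address molecule that captures lymphocytes in gut venules, averaged 8.04 ± 3.15 CPM in the double knockout and 1.76 ± 1.7 CPM in WT (SD, n = 5 each; 2.19, adjusted p = 0.00272). Icam1, which binds leukocyte integrins and is not confined to endothelium, had 6.54, 4.6, 2.79, 11.9 and 17.1 CPM in the double knockout, against 2.2, 2.13, 1.84, 1.86 and 2.08 CPM in WT. Every double knockout library was above every WT library (2.06, SE 0.385, adjusted p = 0.000307). Vcam1 (1.13, adjusted p = 0.00403) and Lrg1 (1.47, adjusted p = 0.00835) were higher as well, while Jam3, a junction protein, was lower (-0.85, adjusted p = 0.00615). In the MLKL triple knockout 5 of the 10 were lower than in the double knockout, where 4.21% of all genes were, with a median of -0.88. Among them were Icam1 (-1.41, adjusted p = 0.014) and Lrg1 (-1.68, adjusted p = 0.00898). All 5 MLKL triple knockout mice were female, but only 1 of the 5 double knockout mice was. For these genes, Egfl7 and Nrp2, values with sex as a term or without the 3 libraries named above are not given. In the TNFR1 triple knockout 0 of the 10 were called against the double knockout by edgeR, 6 had an unadjusted p under 0.05, as did 18.2% of all genes, and the median was -0.68.

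Of 18 genes of VEGF, angiopoietin and Notch signalling that passed the filter, of 22 listed, 2 were higher and 3 lower in the double knockout than in WT, counts near the shares of all genes. Besides Nrp2 and Flt4 the lower one was Angpt1, which stabilises vessels through the receptor TEK, at 4.22 ± 1.34 CPM in the double knockout and 7.77 ± 1.72 CPM in WT (SD, n = 5 each; -0.90, adjusted p = 0.00947). The higher ones were Hif1a, the oxygen-sensing transcription factor (0.80, adjusted p = 0.00259), and Notch4, an endothelial Notch receptor (0.93, adjusted p = 0.0229). Of 13 genes for vessel tone and clotting, of 14 listed, 2 were lower, Ptgis (-0.81, adjusted p = 0.0151) and Edn1 (-0.92, adjusted p = 0.0226), which make prostacyclin and endothelin, and that count too is near the share of all genes. Of 7 pericyte genes, of 10 listed, 3 were lower, where 10.2% of all genes were. These were Abcc9 (-0.63, adjusted p = 0.000406), Cspg4 (-0.85, adjusted p = 0.00286) and Rgs5 (-0.44, adjusted p = 0.00479), of which smooth muscle can also hold transcripts.

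The lipoprotein lipase pathway, to which GPIHBP1 belongs, had 7 of 10 genes past the filter. Of these 2 were higher in the double knockout than in WT, where 11.1% of all genes were. They were Apoe (1.29, adjusted p = 0.000214) and Apoc2 (1.32, adjusted p = 0.0225), an activator of the enzyme. Apoe had 928, 298, 597, 859 and 936 CPM in the double knockout, against 265, 263, 300, 279 and 375 CPM in WT, with 1 double knockout library among the WT range. Macrophages also make Apoe. Lpl, the enzyme itself, averaged 16.5 ± 6.35 CPM in the double knockout and 18.1 ± 5.75 CPM in WT (SD, n = 5 each) and was not called.

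**Figure D5:**
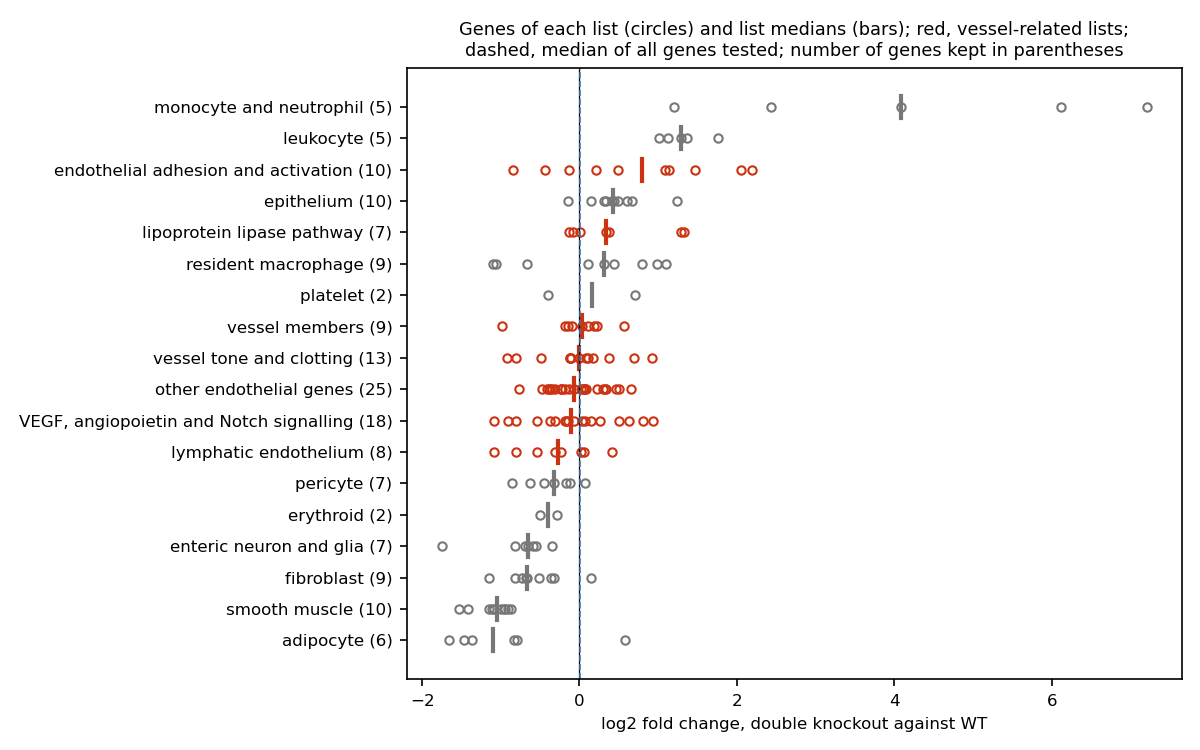
Log2 fold change of each gene of each list in the double knockout against WT (circles) with the list's median (bar); red marks lists of vessel-related genes, and numbers in parentheses are genes that passed the count filter. The medians of the 9 vessel genes (0.03) and of the other endothelial genes (-0.07) lie near 0, that of adhesion and activation genes is 0.79, and that of smooth muscle is -1.04.

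Across the 30 libraries the 9 genes were only loosely tied to each other. Of 36 pairs 6 had a Pearson r over 0.5 on the log2 CPM scale, with a median of 0.22, and the median was the same after group means were removed (0.224). The closest pair was Cd93 and Gpihbp1 (r = 0.698, and 0.33 within genotypes). Libraries share depth and tissue makeup, so these values describe the set and carry no test. The genes outside the list whose pattern was most like the mean of the 9 were Lrrc61 (r = 0.765), Rarres2 (0.755), Axl (0.754), Reln (0.748), Scnn1b (0.736), Casp14 (0.73), Crip2 (0.729) and Mmrn1 (0.717), over 30 libraries. Within genotypes these values were 0.57 to 0.683. Reln and Mmrn1 were on the list of lymphatic genes.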

How the data were processed

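Processed values for total RNA from the colon of 30 mice were used, from 3′ tag libraries (Lexogen QuantSeq, forward), per the labels' protocols. The authors deposited 1 table of estimated counts per gene, some of them fractional. The tools listed in the submitters' processing notes are featureCounts 2.01, Subread, cutadapt 3.2 and R 4.0.0, with the build GRCm38 (mm10). How they were set, strand included, is not given in the sources used here. A 3′ tag count needs no length correction. PCR copies are not removed in any step named in these sources, so counting errors are lower limits. Library totals were 3516792.65 to 5823059.66 reads. Each library is a mouse of its own, per the labels' protocols.

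Identifiers were matched to symbols in GENCODE M21 (55141 of 55487 genes; the others held 0.0190% of reads), and 92 spike-in rows with 0 reads were left out. Counts were rounded, and all counts of the 9 genes were whole already. Genes were kept by filterByExpr (15458, 27.9%). One edgeR fit of all libraries (R 4.3.3, edgeR 4.0.16, TMM, quasi-likelihood F test) gave 11 comparisons, with p adjusted by Benjamini-Hochberg within each and a threshold of 0.05. The SE is the log2 fold change divided by the square root of F. Likeness used log2 CPM with a prior count of 2. The procedure was tested on simulated data.

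The vessel genes, the 19 gene lists and the tests were chosen with earlier results of these data known. Named genes were all 9 members, the targeted genes, up to 3 genes of smallest p of each list in the double knockout against WT and up to 2 in other comparisons with a call, and the 8 genes of most similar pattern. Jam3, Prox1, Lpl, Gp9 and Timd4 lie outside that rule and were chosen after their values were seen. Alternatives were limma 3.58.1 voom, DESeq2 1.42.0, fits with fewer groups, DESeq2 size factors, library totals, no filter, a stricter filter, a block for the replicate number, sex as a term, each sex alone where both groups had at least 2 mice of it, and each library left out. Leaving out 3 doubted libraries together and scaling to other endothelial genes were chosen after seeing the data.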

Additional observations from a re-analysis of the deposited data

Results flagged for a closer look

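Gpihbp1, Cd93 and Vwf were singled out because the change with Casp8 deletion differed between mice with and without Xbp1, by a test of the interaction itself. The difference was 2.71 on the log2 scale for Gpihbp1, 1.04 for Cd93 and 1.18 for Vwf, with adjusted p-values of 0.00647, 0.0163 and 0.0385 by edgeR. That of Vwf was not called with sex as a term (adjusted p = 0.111), without the 3 doubted libraries (adjusted p = 0.123), with the replicate number as a block (adjusted p = 0.0627) or in 10 of 20 fits that left out a library. In all 5 double knockout libraries Gpihbp1 was above all 5 Xbp1 knockout libraries, while all 5 Casp8 knockout libraries were below all 5 WT libraries.

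Vwf in WT replicate 2 stood at 17.3 CPM, and the next WT library at 11.7 CPM. It was singled out because this gap took most of the group's range. Without it the interaction of Vwf was 1.03 and not called (adjusted p = 0.071). Of the 54 groups of 5 mice examined (9 genes in 6 genotypes) it was the 1 such value. Chance gives such a value in about 1 in 20 groups, so 1 among 54 is no more than chance would give.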

How the results depend on the processing

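Lyve1 in the double and the TNFR1 triple knockout against WT, Gpihbp1 in the double against the Casp8 knockout, and Gpihbp1 in the MLKL triple against the double knockout kept their direction and their call under every alternative run. The share of all genes called under each alternative is not given here, so the counts below cannot be set against a background. The counts of the 9 genes called moved as follows. Against WT the Casp8 knockout gave 1 in place of 0 with DESeq2 size factors or library totals, 2 with DESeq2, and 4 with voom or a fit of only the groups compared. The MLKL triple knockout against WT gave 1 in place of 0 with no filter, voom, DESeq2, the 3 doubted libraries left out, or endothelial scaling, in each case Lyve1. The TNFR1 triple knockout against WT gave 1 in place of 2 with sex as a term. The double against the Xbp1 knockout gave 1 in place of 2 with only the groups compared, voom, the 3 libraries left out or endothelial scaling, and 0 in males only. The double against the Casp8 knockout gave 1 in place of 3 in males only. The TNFR1 triple against the double knockout gave 0 in place of 1 with only the groups compared. The MLKL triple against the double knockout gave 1 in place of 2 with only the groups compared, voom, sex as a term, the 3 libraries left out or endothelial scaling. The interaction gave 0 in place of 3 in males only, 1 with endothelial scaling, and 2 with only the groups compared, sex as a term or the 3 libraries left out, each time without Vwf. The cause of these moves was not tested, beyond the fewer mice in fits of 1 sex. With single libraries left out the counts ran from 0 to 1 for the Casp8 knockout against WT, 0 to 1 for the MLKL triple knockout against WT, 1 to 2 for the double against the Xbp1 knockout, 1 to 2 for the TNFR1 triple against the double knockout, 1 to 3 for the MLKL triple against the double knockout and 2 to 3 for the interaction. The libraries behind these were WT replicate 5 for the Casp8 knockout, MLKL triple knockout replicate 4 or 5 for that group against WT, and double knockout replicate 2 or 3 for the TNFR1 triple against the double knockout, and those for Cd93 stand in the report. Vwf lost its interaction call in 10 of 20 such fits, without replicate 1, 2 or 5 of the Xbp1 knockout, 1, 3 or 5 of the Casp8 knockout, 1 or 5 of the double knockout, or 2 or 5 of WT. No called value changed sign.

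In no comparison did all 5 same-numbered pairs deviate together with r over 0.1. In the double against the Casp8 knockout 4 of 5 did, with a median r of 0.139. The labels do not say whether replicate numbers mark a shared litter or batch, and this check cannot decide it. With the replicate number as a block the interaction called 2 of 9 in place of 3, with Vwf at 1.17 (adjusted p = 0.0627), and the counts of the other 10 comparisons did not move. Females alone were fitted between the triple knockouts only. Depth limits Gpihbp1 most, at 2 to 58 reads per library.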
